A study of Homo sapiens with 8 samples.

Results

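The AP-1 genes examined here are FOS, FOSB, FOSL1, FOSL2, JUN, JUNB, JUND, ATF3 and BATF3. They were chosen by name, as the FOS, JUN and ATF3/BATF3 genes with a row in both the count and the FPKM table. All 9 were found among the 25369 genes of the table, and all 9 were among the 14570 genes with enough counts to be tested. Their RNA was followed from day 2 to day 4 on a soft and on a stiff matrix, together with the share of each gene in the summed AP-1 RNA.

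AP-1 is a dimer of basic leucine zipper proteins. A FOS protein cannot form a stable dimer with itself and binds DNA together with a JUN protein, whereas JUN proteins also pair with each other and with some ATF proteins. FOS, FOSB, JUN and JUNB are classical immediate-early genes, transcribed within minutes of serum, growth factors or mechanical load, while FOSL1 and FOSL2 proteins, also called FRA1 and FRA2, lack the strong activation domain of FOS and often prevail in cells that grow steadily. Hepatic stellate cells (HSCs) turn into collagen-producing myofibroblasts in liver fibrosis, and JUN and FOS family proteins are known regulators of that change.

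LX-2, an immortalized human HSC line labelled wild type, was cultured on polyacrylamide hydrogels of 2 kPa (soft) or 40 kPa (stiff) for 2 or 4 days, with no further treatment. Each of the 4 conditions had 2 libraries, 8 in all, described as biological replicates from independent experiments. The deposited totals lay between 19955975 and 27263935 counts per library, with a median of 22598474. Replicates differed by more than counting noise in every condition, and the chi-square divided by its degrees of freedom was 3.53 to 20.1 in 3 conditions but 119.7 in the stiff day 4 libraries, which therefore stand apart. Of 11 stellate cell markers, VIM, COL1A1, SPARC and TIMP1 were at 160.7 CPM or more (counts per 1000000, with edgeR's TMM factors) in every library, whereas DES, LRAT and DCN had at most 4 counts. ALB, APOA1, EPCAM, PECAM1 and CDH5, which mark hepatocytes, epithelium and endothelium, had at most 8 counts, and CD68 was the one marker of other cells above 3 CPM, at 83.8 to 119 CPM. These are bulk libraries, in which fewer cells of a type and less RNA per cell cannot be told apart.

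The promoters of AP-1 genes are themselves known to be bound by AP-1, CREB/ATF and serum response factor. RefSeq promoter sequences (GRCh38.p14, 250 bases before to 50 after the gene start) were found for 7 of the 9 genes. The 100 bases before the start are shown for FOS and FOSB, which share a layout and of which FOS alone was called over time, and for JUN and JUNB, whose libraries lay in opposite order on the matrices at both days, though neither was called between them. Capitals mark TGACGT (the core of the cyclic AMP response element, CRE), TATAAA (the motif of the TATA-binding protein) and TGACATCA (the CRE variant known from JUN).
FOS: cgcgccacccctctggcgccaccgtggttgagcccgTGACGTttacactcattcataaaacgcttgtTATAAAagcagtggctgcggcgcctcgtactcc
FOSB: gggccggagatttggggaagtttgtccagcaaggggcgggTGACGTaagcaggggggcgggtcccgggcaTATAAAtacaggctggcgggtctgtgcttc
JUN: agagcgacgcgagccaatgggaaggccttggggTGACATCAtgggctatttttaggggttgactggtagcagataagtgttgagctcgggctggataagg
JUNB: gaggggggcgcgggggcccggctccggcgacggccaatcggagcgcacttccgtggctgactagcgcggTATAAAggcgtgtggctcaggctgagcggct
These windows are chr14:75278728-75278827 and chr19:45467896-45467995 on the plus strand for FOS and FOSB, chr1:58784048-58784147 on the minus strand for JUN and chr19:12791386-12791485 on the plus strand for JUNB. The CRE core began 64 bases before the start in FOS and 60 bases before it in FOSB, and the TATA box began 33 and 30 bases before it. The CRE core, searched on both strands and also counted inside longer CREs, was in 4 of the 7 genes and in 7.98% of 35116 promoters of this length. The letters TATAAA were in 4 of the 7 genes and, on either strand, in 11.5% of promoters. In ATF3 they began 230 bases before the start, far from the place of a TATA box. The JUN-type variant was in JUN and ATF3 and in 2.61% of promoters. ATF3 had more than 1 promoter window, so that counts of genes and shares of promoters are not strictly alike. FOSL2 was the 1 gene of the 7 with the AP-1 element TGACTCA, which began 5 bases after its start. That element, or TGAGTCA, its sequence on the other strand, was in 4.95% of promoters. The CArG box, the element of serum response factor, was in 0 of the 7 genes and in 1.29% of promoters. Sites further from the start were not searched. A match of letters describes the window and is not a bound site.

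FOSL1 and JUN made up most of the AP-1 RNA in every library. Levels were compared per length, in FPKM (fragments per kilobase of transcript and per 1000000 fragments). The deposited values were scaled between libraries by median-of-ratios size factors and not by each library's own total. FOSL1 lay between 167 and 350 FPKM and JUN between 88.4 and 164 FPKM, and these genes ranked highest and second in all 8 libraries. JUND (21.5 to 44.9 FPKM), FOSL2 (12.6 to 35.3 FPKM), BATF3 (11.7 to 27.2 FPKM) and JUNB (12.6 to 27.4 FPKM) formed a middle group whose ranges overlapped and whose order changed between libraries. FOS, ATF3 and FOSB were lowest, between 0.948 and 5.96 FPKM. At day 2 FOS was the lowest of the 9 genes in all 4 libraries, and in the stiff day 4 libraries it was above ATF3 and FOSB.

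The summed FPKM of the 9 genes was 564.7 ± 24.4 on the soft and 608.4 ± 15.1 on the stiff matrix at day 2 (SD, n = 2 each). At day 4 it was 345.8 ± 7.61 on the soft and 395.7 ± 4.9 on the stiff matrix, so that the day 4 sum was 0.612 of the day 2 sum on the soft and 0.65 of it on the stiff matrix. Expressed per 1000000 of all FPKM in a library, these ratios were 0.583 and 0.562. On that scale the stiff day 4 libraries were further apart, at 955.3 and 692.5 (SD 186). Day 4 libraries lay below day 2 libraries on both matrices on either scale. The fall was mostly in FOSL1 and JUN, whose sum at day 4 was 0.581 and 0.587 of that at day 2 on the soft and the stiff matrix. For the other 7 genes together the ratios were 0.735 and 0.953, or 0.7 and 0.812 per 1000000 of all FPKM.

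**Figure D1:**
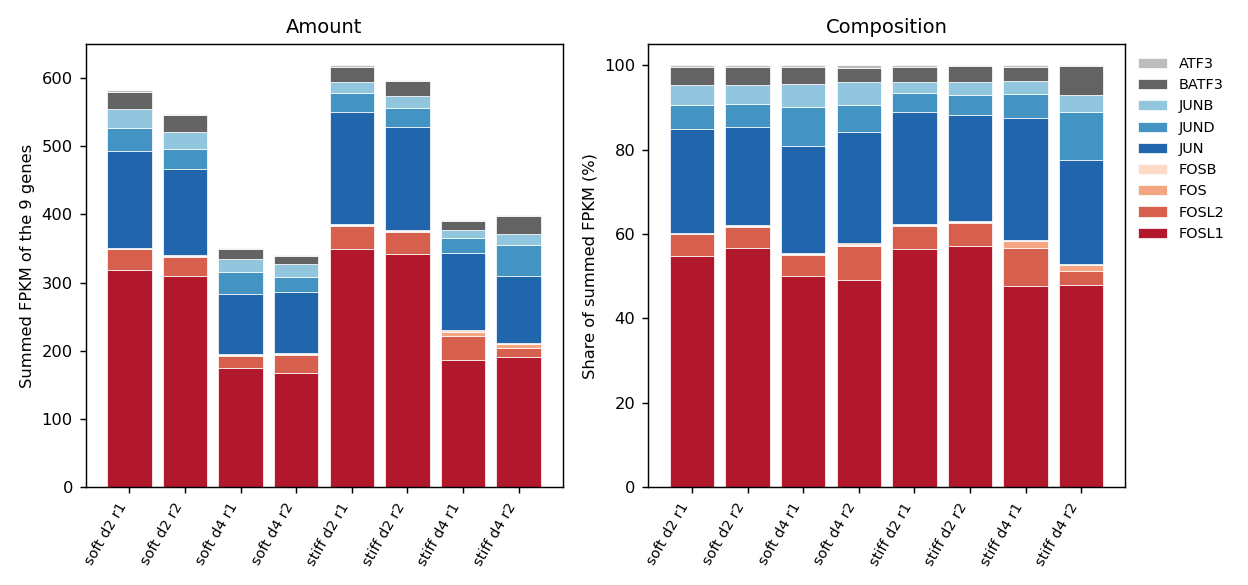
Stacked FPKM of the 9 AP-1 genes in each library (left) and each gene's share of that sum in % (right), with soft (2 kPa) and stiff (40 kPa) libraries at day 2 (d2) and day 4 (d4) and replicates r1 and r2. The sums lie between 547.5 and 619.1 FPKM at day 2 and between 340.4 and 399.2 FPKM at day 4, and FOSL1 is the largest block in every bar.

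The composition moved away from FOSL1. FOSL1 held 54.8% and 56.6% of the summed FPKM in the soft and 56.5% and 57.3% in the stiff libraries at day 2. At day 4 it held 50.1% and 49.2% in the soft and 47.7% and 48.0% in the stiff libraries, so that the day 4 shares lay below the day 2 shares on both matrices. The share of JUN changed less, from 23.8% ± 0.867 to 25.8% ± 0.88 on the soft and from 25.8% ± 0.925 to 26.8% ± 2.89 on the stiff matrix (SD, n = 2 each). JUND rose in mean share from 5.56% ± 0.323 to 7.77% ± 2.07 on the soft and from 4.57% ± 0.129 to 8.42% ± 4.01 on the stiff matrix, with replicates that differed widely at day 4. FOS went from 0.182% and 0.207% to 0.367% and 0.433% on the soft matrix. With stiff gels the share of FOS went from 0.207% and 0.202% to 1.52% and 1.40%, still a small part of the sum. Shares of one sum are not independent, and groups of 2 cannot give an exact permutation p under 0.05, so they are given without a test.

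Day 4 was compared with day 2 on each matrix with the quasi-likelihood test of edgeR, adjusted by the Benjamini-Hochberg method over all genes tested, with calls at an adjusted p under 0.05. FOSL1 and JUN fell on both matrices, FOS rose on the stiff matrix, and the other 6 genes were not called on either. On the soft matrix 0 of 9 genes rose and 2 fell, against 14.1% of all genes tested that rose and 13.3% that fell (27.4% called). On the stiff matrix 1 rose and 2 fell, against 14.0% and 13.7% (27.6% called), so that the share of AP-1 genes called was near that of all genes. The median log2 fold change of the 9 genes was -0.38 on the soft and -0.24 on the stiff matrix, beside medians of 0.02 and 0.03 over all genes tested. Libraries of the days did not overlap in CPM for 8 of the 9 genes on the soft matrix (75.3% of all genes) and for 5 of the 9 on the stiff matrix (62.7% of all genes). Without scaling factors the median over all genes on the stiff matrix was -0.10, and the share of called genes that rose went from 50.5% to 36.1% there and from 51.5% to 40.3% for the soft matrix. The direction of the 3 called genes did not change under that setting.

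**Figure D2:**
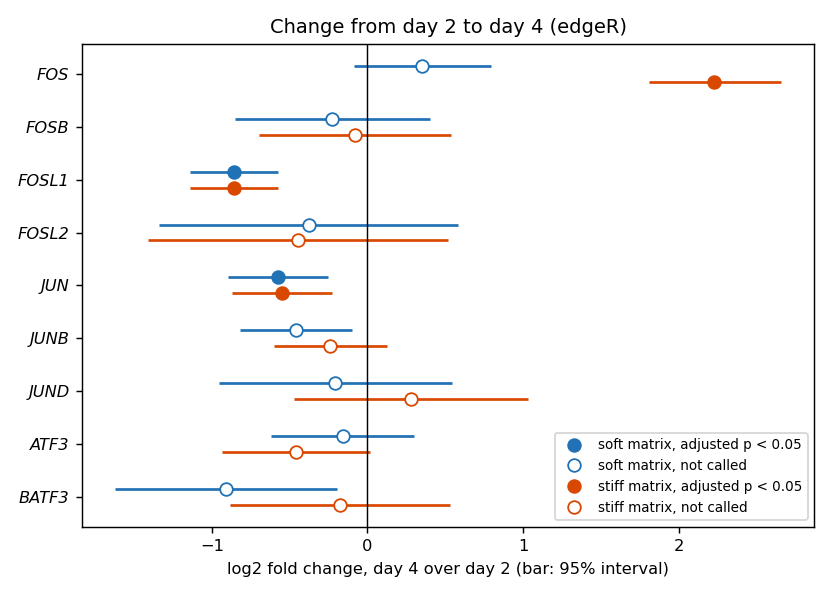
Log2 fold change of each AP-1 gene from day 2 to day 4 on the soft (blue) and the stiff (orange) matrix, fitted by edgeR, with 95% intervals as bars and filled points for an adjusted p under 0.05. FOSL1 lies at -0.86 on both matrices, JUN at -0.57 and -0.55, and FOS at 0.35 on the soft and 2.23 on the stiff matrix.

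FOSL1, on chromosome 11 of GRCh37 from 65659520 to 65668044, was the most abundant FOS family gene. It had 534 and 517 CPM in the soft and 585 and 571 CPM in the stiff libraries at day 2. At day 4 it had 295 and 285 CPM in the soft and 314 and 324 CPM in the stiff libraries. Every day 4 library lay far below every day 2 library, and at each day both stiff libraries were slightly above both soft ones. Over time the change was -0.86 in log2 on the soft (standard error 0.122, adjusted p = 0.00369 by edgeR) and also -0.86 on the stiff matrix (standard error 0.122, adjusted p = 0.00381 by edgeR). That is 1.81-fold lower at day 4 on either matrix. The difference between these changes was 0.00087 with a 95% interval from -0.40 to 0.40, and its sign turned without scaling factors (-0.05). The call on the soft matrix was lost without soft day 2 replicate 1 (adjusted p = 0.0537 by edgeR). On the stiff matrix it was lost without stiff day 2 replicate 2 (adjusted p = 0.0529) and in a fit of the stiff libraries alone (adjusted p = 0.0688 by edgeR).

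FOS, on chromosome 14 from 75745529 to 75748933, encodes the c-FOS protein, the prototype of the immediate-early genes. It had 65 and 68 counts in the soft and 66 and 62 counts in the stiff libraries at day 2, or 2.29, 2.45, 2.77 and 2.60 CPM. By day 4 the values were 60 and 72 counts in the soft libraries (2.80 and 3.25 CPM) and 264 and 213 counts in the stiff libraries (13.0 and 12.3 CPM). The stiff day 4 libraries were close to each other and far above the other 6, which all lay between 2.29 and 3.25 CPM. On stiff matrix FOS rose by 2.23 in log2 (standard error 0.183, adjusted p = 0.00123 by edgeR), which is 4.69-fold. For the soft matrix the log2 value was 0.35, with a standard error of 0.191 (adjusted p = 0.201 by edgeR). In a fit of the stiff libraries alone the adjusted p on the stiff matrix was 0.0513 by edgeR.

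The difference between the matrices in the change of FOS over time was 1.88 on the log2 scale (standard error 0.263, 95% interval 1.27 to 2.49). Its unadjusted edgeR p of 0.000108 was the smallest of all 14570 genes in this contrast. The adjusted p was 1, however, and 0 of 9 AP-1 genes and 0% of all genes were called for this difference by edgeR, with 284 genes (1.95%) at an unadjusted p under 0.05. DESeq2 called 3 genes, FOS among them (adjusted p = 0.0249). Without stiff day 4 replicate 1 the log2 difference in FOS was 1.85, and without stiff day 4 replicate 2 it was 1.94. In either case 1 library stands for that condition, so that its spread is not measured and only the size is given.

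**Figure D3:**
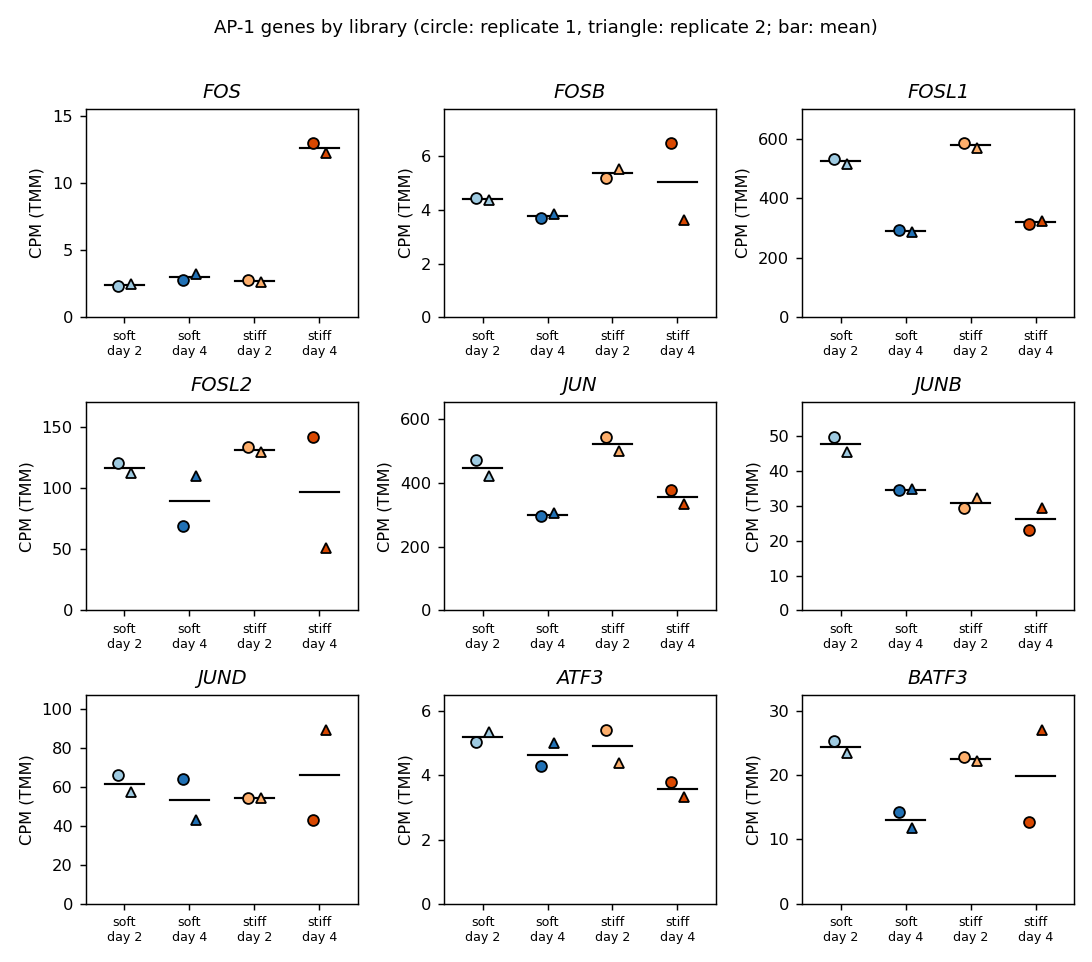
CPM of each AP-1 gene by condition, with replicate 1 as a circle, replicate 2 as a triangle and the mean of both as a bar. FOS is at 13.0 and 12.3 CPM on the stiff matrix at day 4 and at no more than 3.25 CPM elsewhere, and FOSL2, JUND and BATF3 differ by at least 2.06-fold between the stiff day 4 replicates.

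FOSB, on chromosome 19 from 45971253 to 45978437, encodes an immediate-early relative of FOS. Its level was 3.69 to 4.44 CPM in the 4 soft libraries, 5.21 and 5.53 CPM in the stiff libraries at day 2, and 6.48 and 3.63 CPM in those at day 4. The stiff day 4 libraries were thus the highest and the lowest of all 8. Log2 fold changes of -0.22 on the soft and -0.08 on the stiff matrix had adjusted p-values of 0.565 and 0.847 by edgeR. FOS and FOSB differed in this respect: both stiff day 4 libraries were high in FOS and only replicate 1 was in FOSB.

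FOSL2, on chromosome 2 from 28615315 to 28640184, encodes FRA2. It had 120 and 112 CPM in the soft and 134 and 129 CPM in the stiff libraries at day 2. By day 4 the level was 69.2 and 110 CPM in the soft libraries and 142 and 51.1 CPM in the stiff libraries. The stiff day 4 replicates differed by 2.78-fold, more than 95.5% of genes tested did between these libraries. The log2 fold changes were -0.38 on the soft (95% interval -1.34 to 0.59) and -0.44 on the stiff matrix (95% interval -1.41 to 0.52), and neither was called. Without stiff day 4 replicate 1 the change on the stiff matrix was -1.36, and without replicate 2 it was 0.10, so that 1 library decides its direction.

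JUN, on chromosome 1 from 59242517 to 59249720, encodes c-JUN, the main partner of FOS proteins. It had 473 and 421 CPM in the soft and 545 and 499 CPM in the stiff libraries at day 2. On day 4 there were 296 and 305 CPM in the soft and 379 and 333 CPM in the stiff libraries. As in FOSL1, all day 4 libraries were below all day 2 libraries, and at each day the stiff libraries were above the soft ones. In log2 the change was -0.57 on the soft matrix (standard error 0.14, adjusted p = 0.0209 by edgeR), or 1.49-fold lower at day 4. For the stiff matrix it was -0.55 (standard error 0.14, adjusted p = 0.0241 by edgeR), or 1.47-fold lower. The difference between these changes was 0.02 (95% interval -0.43 to 0.48), with its sign turned without scaling factors (-0.03). The calls of JUN were near the threshold: leaving out any 1 of the 6 libraries other than those of stiff day 4 ended both, with adjusted p-values of 0.0564 to 0.169 on the soft and 0.052 to 0.17 on the stiff matrix (edgeR). On the stiff matrix a fit of its 4 libraries alone also ended the call (adjusted p = 0.138 by edgeR).

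JUNB, on chromosome 19 from 12902300 to 12904129, encodes a JUN protein that activates transcription more weakly than c-JUN and can oppose it. Unlike the other 8 genes, it was higher on the soft matrix at both days without overlap. Separation itself was common, as libraries of the matrices did not overlap for 8 of the 9 genes at day 2 and for 5 at day 4. FOS, FOSL1 and JUN were separated at both days in the other direction. The share of all genes so separated was not determined. With 2 libraries per condition such a separation is a description, and JUNB was not called between the matrices by edgeR on all 8 libraries. It had 49.8 and 45.4 CPM in the soft and 29.4 and 32.3 CPM in the stiff libraries at day 2, and 34.6 and 34.7 CPM in the soft and 23.0 and 29.4 CPM in the stiff libraries at day 4. The fall over time on the soft matrix, -0.46 on the log2 scale, missed the threshold (adjusted p = 0.0635 by edgeR), and DESeq2, which called 29.4% of all genes there, called it (adjusted p = 0.0372). On the stiff matrix the value was -0.24 (adjusted p = 0.29 by edgeR). It was -0.07 without stiff day 4 replicate 1 and -0.43 without replicate 2. Up to 259 bases of a JUNB exon overlap an exon of HOOK2 on the opposite strand, and the strand setting of the counting is not given in the sources used here. HOOK2 had 11.8 to 29.5 CPM, with a log2 fold change over time of -1.03 on the soft (adjusted p = 0.00649 by edgeR) and -0.74 on the stiff matrix (adjusted p = 0.0204 by edgeR). Its part in the JUNB values was not tested.

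JUND, on chromosome 19 from 18390504 to 18392432, encodes the JUN protein usually present in resting cells. It had 66.3 and 57.2 CPM in the soft and 54.5 and 54.6 CPM in the stiff libraries at day 2. At day 4 it had 64.0 and 43.0 CPM in the soft and 43.3 and 89.4 CPM in the stiff libraries, so that the days overlapped on both matrices and the day 4 libraries spanned the day 2 values on the stiff matrix. Log2 fold changes of -0.21 on the soft and 0.28 on the stiff matrix were not called (adjusted p = 0.664 and 0.548 by edgeR). Without stiff day 4 replicate 1 the change on the stiff matrix was 0.71, and without replicate 2 it was -0.34. Where JUND was high in a day 4 pair FOSL2 was low, on the soft as on the stiff matrix.

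ATF3 and BATF3 lie close to each other on chromosome 1, from 212738676 to 212794119 and from 212859759 to 212873182. ATF3 is a stress-induced factor that pairs with JUN proteins, and BATF3 is a small partner of JUN proteins without an activation domain, best known from dendritic cells. ATF3 had 4.40 to 5.42 CPM in the 4 day 2 libraries, 4.29 and 5.01 CPM in the soft and 3.78 and 3.34 CPM in the stiff libraries at day 4. The stiff day 4 libraries were the lowest for ATF3, with a log2 change of -0.46 (adjusted p = 0.132 by edgeR) against -0.16 on the soft matrix (adjusted p = 0.578 by edgeR). ATF3 thus did not share the rise of FOS on the stiff matrix.

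BATF3 had 25.4 and 23.4 CPM in the soft and 22.8 and 22.2 CPM in the stiff libraries at day 2. The day 4 values were 14.2 and 11.7 CPM in the soft and 12.8 and 27.0 CPM in the stiff libraries. Of the day 4 libraries 3 lay near each other, and stiff replicate 2 was above all day 2 libraries. On the soft matrix the log2 fold change was -0.91, the largest in size among the AP-1 genes there, but with a standard error of 0.308 it missed the threshold (adjusted p = 0.0626 by edgeR), and DESeq2 called it (adjusted p = 0.0208). For the stiff matrix it was -0.18 (adjusted p = 0.688 by edgeR). That value was 0.26 without stiff day 4 replicate 1 and -0.82 without replicate 2.

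The spread between stiff day 4 replicates differed sharply among the AP-1 genes. FOSL1, FOS, ATF3 and JUN differed by 1.03-fold, 1.06-fold, 1.13-fold and 1.14-fold between these libraries, while FOSB, JUND, BATF3 and FOSL2 differed by 1.79-fold, 2.06-fold, 2.12-fold and 2.78-fold. FOSB and FOSL2 were higher in replicate 1, and JUND and BATF3 in replicate 2. JUNB lay between the alike and the unlike genes at 1.28-fold. Over all genes tested the median gap between the stiff day 4 libraries was 0.467 in log2, without regard to sign. Among all genes the gaps of FOSL1, FOS, ATF3 and JUN were at percentiles 4.89, 9.2, 20 and 21.2. Those of FOSB, JUND, BATF3 and FOSL2 were at percentiles 77.4, 87.4, 88.3 and 95.5. At day 2 no AP-1 gene differed by more than 1.23-fold between replicates of a condition. In the soft day 4 libraries FOSL2 and JUND differed by 1.58-fold and 1.49-fold. FOSL1, JUN and FOS, called over time on the stiff matrix, thus had alike stiff day 4 replicates, as had ATF3, which was not called. The test draws in part on each gene's own spread, so that alike replicates are not separate support for these calls. The values of FOSB, JUND, BATF3 and FOSL2 rest on replicates that were not alike.

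Between the matrices, 0 of 9 AP-1 genes and 0% of all genes were called at day 2 by edgeR, with 2.82% of all genes (411) at an unadjusted p under 0.05. JUNB had the largest difference among the 9 at day 2, with a log2 fold change of -0.62, stiff over soft (standard error 0.156, unadjusted p = 0.00416 and adjusted p = 1 by edgeR). When only day 2 libraries were fitted, JUNB was called (adjusted p = 8.75e-06 by edgeR), as were 4.67% of all genes. Without stiff day 4 replicate 1 the log2 fold change of JUNB at day 2 was -0.63, and without stiff day 4 replicate 2 it was also -0.63. At day 4 its log2 fold change was -0.40 (adjusted p = 0.656 by edgeR). That value was -0.23 without stiff day 4 replicate 1 and -0.58 without replicate 2.

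At day 4, 1 of 9 AP-1 genes was called, FOS, which was higher on the stiff matrix, against 0.247% of all genes called and 0.0343% called as higher. The log2 difference was 2.06 (standard error 0.182, adjusted p = 0.0106 by edgeR), or 4.17-fold, and both stiff libraries were above both soft ones. Leaving out a soft library of either day ended this call, with adjusted p-values from 0.0899 to 0.126 by edgeR, and so did fitting only the day 4 libraries (adjusted p = 0.285 by edgeR). FOSL1 had a log2 fold change of 0.14, stiff over soft, at either day, and JUN had one of 0.22 at day 2 and 0.25 at day 4. None of these passed the test, with adjusted p-values of 0.831 to 1 by edgeR.

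Ratios within a library, which do not depend on its scaling, give the balance between family members. FOSL1 exceeded FOS in FPKM by 273-fold to 302-fold in the 4 day 2 libraries, by 136-fold and 114-fold in the soft and by 31.4-fold and 34.2-fold in the stiff libraries at day 4. The ratio of FOSL1 to JUN was 2.14 to 2.44 at day 2 and 1.65 to 1.99 at day 4, without overlap between the days. The ratio of JUN to JUNB instead separated the matrices, at 4.67 to 5.19 in the 4 soft and 6.19 to 10.1 in the 4 stiff libraries. These ratios are descriptions of the 8 libraries, and no test was made of them.

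Genes with the most similar pattern to FOS and to FOSL1 were sought among 12035 other genes with a mean log2 CPM of at least 1, by Pearson's r of log2 CPM over the 8 libraries. The libraries share days and matrices, so that these r are descriptions. For FOS they were CCBE1 (r = 0.972), CTPS1 (r = 0.968) and EGR1 (r = 0.967), and 9 genes had an r over 0.95. For FOSL1 they were ANXA2P2 (r = 0.998), CTNS (r = 0.998) and DVL1 (r = 0.995), and 516 genes had an r over 0.95. A pattern like that of FOSL1 was thus common, and one like that of FOS was rare. ANXA2P2 is a pseudogene with a near-identical parent gene, between which the counting could split reads, so its value is uncertain.

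EGR1, an immediate-early zinc finger factor, had 29.5 to 38.4 CPM at day 2, 45.5 and 41.3 CPM in the soft and 87.3 and 87.4 CPM in the stiff libraries at day 4. Over time it rose by 1.36 in log2 on stiff matrix (adjusted p = 0.00217 by edgeR) and had 0.32 on the soft matrix (adjusted p = 0.16 by edgeR). The difference between these changes was 1.04 (unadjusted p = 0.0016, adjusted p = 1 by edgeR). CCBE1, a secreted factor known from lymphatic growth, rose by 0.53 on the stiff matrix (adjusted p = 0.0205 by edgeR), and CTPS1, a CTP synthase, had 0.31 there (adjusted p = 0.0838 by edgeR). The changes of both were much smaller than that of FOS.

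**Figure D4:**
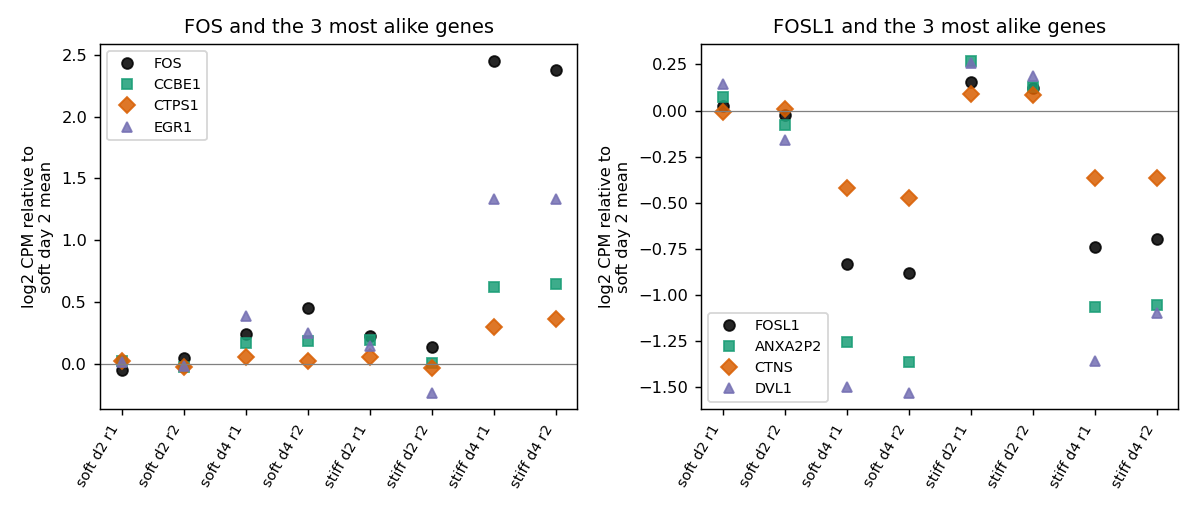
Log2 CPM of FOS (left) and FOSL1 (right) and the 3 genes most alike to each, relative to the mean of the soft day 2 libraries, in each of the 8 libraries. FOS stands more than 2 above the reference in both stiff day 4 libraries with EGR1, CCBE1 and CTPS1 above it by less, and FOSL1, ANXA2P2, CTNS and DVL1 are lower in all 4 day 4 libraries.

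Other basic leucine zipper partners of AP-1 and CREB/ATF factors moved in both directions over time. Of 22 tested, 3 rose and 4 fell on the soft matrix and 1 rose and 3 fell on the stiff matrix. Of all genes tested, 14.1% rose and 13.3% fell on the soft matrix, and 14.0% rose and 13.7% fell on the stiff matrix. CEBPB, an inflammatory C/EBP factor, fell on both, with log2 fold changes of -1.27 (soft) and -1.04 (stiff) (adjusted p = 0.00451 and 0.00852 by edgeR). The small MAF proteins MAFG and MAFK, which lack an activation domain, fell from 77.3 and 37.4 CPM at day 2 to 39.8 and 15.9 CPM at day 4 on the soft matrix, and likewise on the stiff matrix from 82.6 and 40.6 to 41.6 and 17.4 CPM. ATF1, a CREB relative, rose by 0.76 on the soft and by 0.59 on the stiff matrix (adjusted p = 0.0119 and 0.0278 by edgeR).

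Among 25 tested kinases, phosphatases and ternary complex factors that act upstream of AP-1, 2 rose and 4 fell on the soft and 2 rose and 5 fell on the stiff matrix. Of all genes tested, 27.4% were called on the soft and 27.6% on the stiff matrix, so that the share called was near that of all genes. MRTFA, a coactivator of serum response factor that senses actin, fell by 1.09 on both matrices (adjusted p = 0.00286 on the soft and 0.00273 on the stiff matrix by edgeR). MAP2K7, which activates the JUN kinases, fell on both with log2 fold changes of -0.62 and -0.44, and MAP3K1, which acts above it, rose by 1.02 and 0.97 (adjusted p = 0.0105, 0.0328, 0.0154 and 0.0191 by edgeR, soft before stiff in each gene). MAP3K5 rose on the soft matrix by 1.05 (adjusted p = 0.0157 by edgeR). DUSP6, an ERK phosphatase that ERK itself induces, rose on the stiff matrix by 0.48 (adjusted p = 0.0333 by edgeR). No gene of this group was called for the difference between these changes.

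Among genes known as AP-1 targets, more were called as higher than as lower at day 4, and AP-1 activity was not tested. Of 22 tested, 7 rose and 2 fell on the soft matrix, with a median log2 fold change of 0.32 (0.02 over all genes). Of all genes tested 14.1% rose and 13.3% fell there. On the stiff matrix 8 rose and 2 fell, beside 14.0% and 13.7% of all genes, with a median of 0.00 (0.03 over all genes). HMOX1, heme oxygenase, fell, with log2 fold changes of -1.58 on soft and -2.52 on stiff matrix (adjusted p = 0.00172 and 0.000737 by edgeR). MMP1, interstitial collagenase, fell likewise, with -1.77 and -1.26 (adjusted p = 0.00275 and 0.00695 by edgeR). CXCL8, the chemokine interleukin-8, rose on the soft matrix by 1.15 (adjusted p = 0.00687 by edgeR), and SPP1, osteopontin, rose there by 2.38 from 0.623 to 3.26 CPM. On the stiff matrix their means were also higher at day 4, going from 41.3 to 64.95 CPM (CXCL8) and from 0.986 to 3.115 CPM (SPP1). CCN2, connective tissue growth factor, rose on the stiff matrix by 1.13 (adjusted p = 0.00301 by edgeR), from 187 ± 31.2 to 410 ± 0.636 CPM (SD, n = 2 each), and CCN1 rose there by 0.77 (adjusted p = 0.0111 by edgeR). On the soft matrix their means were also higher at day 4, going from 146.4 to 222.5 CPM (CCN2) and from 674.9 to 827.3 CPM (CCN1). No gene of this group was called for the difference between the matrices in the change over time. Both CCN genes are also known targets of YAP and of serum response factor.

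Of the other immediate-early and stress genes, which also answer to handling, most of those called fell. Of 18 tested, 0 rose and 5 fell on the soft matrix, beside 14.1% and 13.3% of all genes tested. On the stiff matrix 4 fell and 1, EGR1, rose, beside 13.7% and 14.0% of all genes. NR4A1, an immediate-early nuclear receptor, fell, with log2 fold changes of -0.95 and -0.88 on the soft and the stiff matrix (adjusted p = 0.00612 and 0.00834 by edgeR), and IER2 fell by 0.75 on the soft matrix (adjusted p = 0.0157 by edgeR). The mean of IER2 was also lower at day 4 on the stiff matrix, going from 133 to 110.1 CPM. HSPA1A and HSPA1B, heat shock genes that fell on both matrices, are near-identical copies between which reads can be split, so that their values (-1.02 each with soft and -1.34 and -1.37 with stiff gels) are uncertain. The summed level of the 18 genes was 2909 to 3385 CPM at day 2 and 2123 to 2160 CPM at day 4 on the soft matrix, and 3787 to 3989 CPM and 2410 to 2459 CPM on the stiff matrix. The fall of this sum was mostly in HSPA1A and HSPA1B. Their means went from 891 and 859 CPM to 441 and 423 CPM on the soft matrix. With stiff gels they went from 1167 and 1122 CPM to 460 and 436 CPM. The part of handling in the FOS values was not tested.

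Cell markers also moved over time. Of 8 stellate cell markers tested, ACTA2, SPARC and VIM were called as higher at day 4 with either gel, and 0 as lower. Over all genes tested, 14.1% were called as higher and 13.3% as lower with soft gels, and 14.0% and 13.7% with stiff gels. With soft gels the 11 markers in the table summed to 3569 to 3880 CPM at day 2 and 5918 to 6424 CPM at day 4. With stiff gels these sums were 4140 to 4292 CPM and 5604 to 7945 CPM. The rise was mostly in VIM, whose mean went from 2016 to 4370 CPM (soft) and from 2663 to 5180 CPM (stiff). The mean of COL1A1 instead fell from 952 to 686 CPM (soft) and from 874 to 588 CPM (stiff), without a call. PDGFRB was also lower in mean at day 4 with both gels, and the means of the other tested markers were higher. Of the 9 markers of other liver and blood cells, 3 could be tested. PTPRC, a leukocyte marker, rose on both matrices from levels near 1 CPM (12 to 64 counts in all libraries), and 0 fell. Their summed level was 84.9 to 106 CPM at day 2 and 102 to 123 CPM at day 4, nearly all of it CD68, a lysosomal protein. The part of these markers in the AP-1 changes was not tested.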

How the data were processed

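RNA-seq was analysed from 8 libraries of LX-2 cells, grouped by the sample labels, with the stiffness taken from the study's methods. Reads had been trimmed with TrimGalore and aligned to hg19 with STAR (version 2.7.1a in the submitters' processing notes), and the authors deposited htseq-count counts per gene, not normalized. The gene annotation and strand setting are not given in the sources used here. The authors also deposited FPKM values, which were found to be scaled by median-of-ratios size factors (in all 15016 genes checked, the ratio of count to FPKM differed between libraries by the ratio of their size factors).

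Counts were tested in R 4.3.3 with edgeR 4.0.16: filterByExpr by condition, TMM factors (0.870 to 1.08) and a quasi-likelihood fit of 4 conditions to all 8 libraries, with 4 residual and 3.86 prior degrees of freedom. The adjusted p threshold was 0.05, over 14570 genes. The paper's tool, DESeq2 (1.42.0), was an alternative, as were limma 3.58.1 on log2(FPKM + 1) and log2(FPKM + 0.1), other scaling and filters, separate fits, the replicate number as a block and leaving out each library. A crossed block and a sum relative to all FPKM were added after the data were seen. Intervals are 95%. Scripts were tested on simulated counts.

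All 9 AP-1 genes are named. From each other list up to 4 called genes per matrix with the smallest adjusted p are named, markers and EGR1 aside. The members and lists were chosen with earlier results of these data known. Of the listed symbols, 4 were matched through older names in RefSeq. Coordinates are from GENCODE v44lift37. The totals limit precision for genes near 1 CPM, and 2 libraries per condition limit every comparison.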

Additional observations from a re-analysis of the deposited data

How the results depend on the processing

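Of 765 values of single AP-1 genes under alternatives, 684 kept their direction and their side of the threshold, 31 newly passed it, 23 no longer passed and 27 changed sign, 1 of which passed it with the new sign (FOSL2 between the matrices at day 4, without stiff day 4 replicate 1, adjusted p = 0.00336 by edgeR). FOS on the stiff matrix over time passed in 16 of 17 alternatives, FOSL1 in 16 (soft) and 15 (stiff) of 17, and JUN in 11 and 9 of 17.

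DESeq2 called 4 AP-1 genes over time on the soft matrix (29.4% of all genes), 3 genes and 1 AP-1 gene for the difference of the changes, 28 genes between the matrices at day 2 and 164 at day 4. Without scaling factors 4 AP-1 genes were called on the soft matrix (24.5% of all genes), and the differences of the changes were -0.053 in FOSL1 and -0.026 in JUN. With a filter of a total of at least 1 count it was -0.0046 in FOSL1. Separate fits called 7261 genes (50.7%) and 5 AP-1 genes over time with soft matrix, 0 and 0 with stiff matrix (4188 genes at an unadjusted p under 0.05), 667 (4.67%) and 1 between the matrices at day 2, and 0 and 0 at day 4 (409 genes at an unadjusted p under 0.05). Limma on log2(FPKM + 0.1) called 1 gene for the difference of the changes. For FOSL2 between the matrices at day 4, limma gave -0.018 on log2(FPKM + 1) and -0.025 on log2(FPKM + 0.1). Relative to all FPKM of a library, the log2 change of the AP-1 sum was -0.78 (soft) and -0.83 (stiff). By counts instead of FPKM, the share of FOSL1 on the stiff matrix changed by -7.43 percentage points. Except where the alternative itself changes the libraries or genes used, the cause was not tested.

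Across conditions, deviations of same-numbered libraries had correlations from -0.49 to 0.0773, so that the numbers do not pair the libraries. With the replicate block 2626 genes (soft) and 2543 genes (stiff) were called over time, 14 between the matrices at day 4, and 0 at day 2 and for the difference of the changes (269 and 199 at an unadjusted p under 0.05). JUN was then no longer called over time with stiff matrix (adjusted p = 0.0531 by edgeR). With the block crossed at day 4, 62 genes were called there.

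With each library left out in turn, 347 to 7941 genes and 0 to 5 AP-1 genes were called over time with soft matrix, and 470 to 7826 and 1 to 5 with stiff matrix. For the difference of the changes these were 0 to 3139 and 0 to 4, between the matrices at day 2 0 to 122 and 0 to 1, and at day 4 0 to 4676 and 0 to 4. The highest numbers came without a stiff day 4 library. Log2 changes whose sign turned ranged over time from -0.55 to 0.051 in JUND with soft matrix, and with stiff matrix from -0.82 to 0.26 in BATF3, -0.57 to 0.26 in FOSB, -1.36 to 0.10 in FOSL2 and -0.34 to 0.71 in JUND. The differences of the changes ranged from -0.024 to 0.041 in FOSL1, -0.065 to 0.13 in JUN, -0.97 to 0.51 in FOSL2, -0.33 to 0.51 in FOSB and -0.11 to 0.93 in JUND. Between the matrices the range was -0.24 to 0.062 in ATF3 at day 2, and at day 4 it was -0.79 to 0.68 in FOSL2, -0.042 to 0.79 in FOSB, -0.30 to 0.75 in JUND and -0.014 to 1.07 in BATF3. The change in the share of JUN on the stiff matrix ranged from -1.01 to 3.08 percentage points.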
